A study of Mus musculus with 8 samples.

Results

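The comparison described here sets R284S cells given double-stranded DNA (dsDNA) against N154S cells given dsDNA. Both lines are mouse embryonic fibroblasts (MEFs), labelled as primary cells and genotype STING-/-, into which a variant of STING had been put back. The comparison was chosen by the sample titles alone and uses 2 of the 8 arrays of the series, 1 a side, so no difference between these 2 arrays has a replicate, an SD or a test. The remaining arrays served as context: hSTING cells and empty vector (pBabe) cells with dsDNA, and control cultures of all 4 constructs. N154S is the variant that the series assigns to SAVI, an inherited autoinflammatory disease, and hSTING is the wild-type protein. Whether R284S and N154S were built in the human protein is not spelled out in the labels, nor is whether control cultures were given Lipofectamine 2000, the carrier in which dsDNA was applied for 9 h. All 8 cultures lack endogenous STING by genotype, and each construct is represented by 1 cell population. A difference between constructs therefore cannot be told apart from any other difference between those populations. The total RNA was labelled from 300 ng a sample and hybridised to Affymetrix arrays.

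STING is a membrane protein of the endoplasmic reticulum. It binds the cyclic dinucleotide that the enzyme cGAS makes when DNA reaches the cytosol, and then recruits the kinase TBK1. TBK1 phosphorylates IRF3, which switches on interferon beta, and STING also engages NF-kB. Secreted interferon then acts back on the cell through JAK-STAT signalling and induces a large set of antiviral genes, many of them through a promoter element read by IRF and STAT factors. In fibroblasts this route is a main source of type I interferon after DNA transfection.

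Values are log2 array signals as deposited, so a difference of 1 is 2-fold. A gene was counted as different when it differed 2-fold or more and its brighter array lay at or above that array's median over the 22180 named genes, which was 4.46 in R284S cells and 4.47 in N154S cells with dsDNA. Where the dimmer signal lay below that median, the fold is given as a lower bound against the median. Over all genes the difference between R284S and N154S with dsDNA had a median of 0.02 and a central 95% range of -0.65 to 0.59, and in control cultures -0.53 to 0.53. Pearson's r between the 2 arrays across probe sets was 0.985, within the 0.973 to 0.989 found for all array pairs. All 10 fibroblast markers were at or above the array median in R284S cells with dsDNA and 9 of 10 in N154S cells with dsDNA, the remaining one being the fibroblast surface protease Fap, at 5.34 in R284S and 4.32 in N154S. Of the 9 macrophage and leukocyte markers 3 reached the median in R284S cells and 4 in N154S cells. Their summed linear signal was 265 in R284S and 219 in N154S cells, and 208 to 210 in the other 2 lines with dsDNA. The defining markers Ptprc (2.66 in R284S, 2.54 in N154S) and Adgre1 (2.93 in R284S, 2.74 in N154S) were far below the median. Cd68 (6.52 in R284S, 5.96 in N154S), Cd14 and Csf1r reached the median in both lines. Fcer1g (4.39 in R284S, 4.92 in N154S) reached it in N154S cells alone. All 4 muscle markers also reached the median in both lines, so reaching it does not by itself tell cell types apart. The endogenous gene Sting1 read 3.96 in R284S cells and 3.81 in N154S cells with dsDNA, both below the median. Its probe set does not check the labels, because neither the deleted part nor the added sequence is known to be what it reads.

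With dsDNA present, R284S cells had lower signals than N154S cells for a broad group of interferon-induced genes and higher signals for a smaller, mixed group. By the count above, 133 of the 22180 genes were lower (0.6% of all genes) and 30 were higher (0.135%). The extremes were the secreted lipid carrier Apod, at least 22.01-fold lower, and the metalloreductase Steap4, 4.69-fold higher. The dimmer signal lay below the array median in 27 of the 133 lower and 9 of the 30 higher genes, so their folds are lower bounds. In all 9 of these higher genes the bound fell short of the counting threshold, the largest being 1.96 for Selenbp1. Among the 27 some bounds fell short, as for Il15 at 1.05, and others did not, as for Gbp5 at 6.45. In control cultures of the same lines 67 genes were lower (0.302%) and 36 were higher (0.162%). Of the 133 lower genes, 117 had the same sign in control cells and 47 were already counted there, which is 70.1% of the 67 control genes. Of the 30 higher genes, 26 had the same sign in control cells and 7 were already counted. In bulk RNA a lower signal from fewer responding cells and one from less RNA per cell cannot be told apart.

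**Figure D1:**
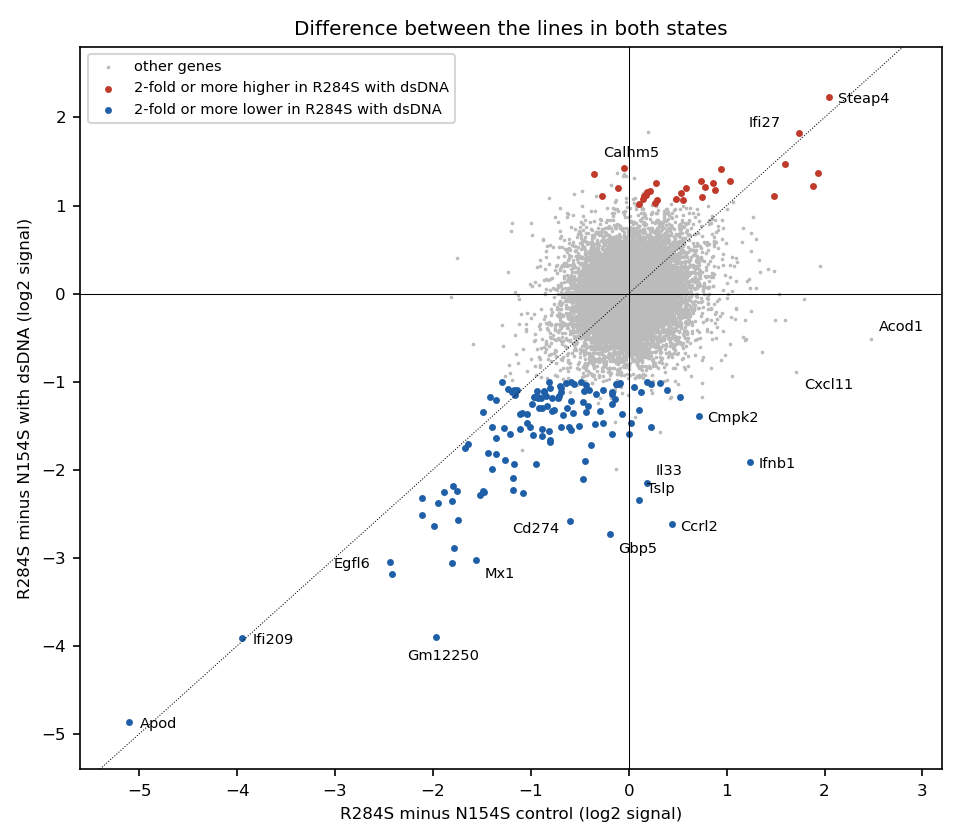
Each point is 1 of the 22180 genes. The x axis is R284S minus N154S in control cultures and the y axis is R284S minus N154S with dsDNA, both in log2 signal with 1 array a side. Red and blue points are the 30 higher and 133 lower genes, and the dotted line marks an equal difference in both states. Apod and Steap4 lie on it, while Ifnb1, Ccrl2, Gbp5, Tslp and Il33 lie below 0 with dsDNA but near or above 0 in control cultures.

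The antiviral interferon-stimulated genes gave 29 of the 133 lower genes and 1 of the 30 higher ones, out of 55 measured members of that list. The median difference was -1.08 against 0.02 over all genes, and 53 of the 55 differences were negative. In control cultures the same list had 12 members lower, 2 higher and a median of -0.67. The list's median signal with dsDNA was 7.13 in R284S cells and 8.85 in N154S cells, with 8.94 in hSTING cells and 5.53 in vector cells. R284S cells therefore sat between vector and hSTING cells, and N154S cells close to hSTING cells.

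Phf11b, a PHD finger protein of an interferon-induced family, had a signal of 5.32 in R284S cells with dsDNA and 8.50 in N154S cells with dsDNA, against 9.19 in hSTING and 4.32 in vector cells. It was 9.06-fold lower in R284S than in N154S cells. Mx1, a dynamin-like GTPase that blocks influenza virus in mice with an intact gene, read 2.95 in R284S and 5.97 in N154S, with 7.22 in hSTING and 2.60 in vector cells, which makes it at least 2.85-fold lower. Mx2, its close relative, read 6.10 in R284S and 8.34 in N154S and was 4.72-fold lower. The oligoadenylate synthetases, which activate RNase L on sensing double-stranded RNA, went the same way: Oas1g was 4.72-fold, Oas2 4.56-fold and Oas3 3.51-fold lower. Usp18, which removes Isg15 from proteins and restrains interferon signalling, stood at 10.74 in R284S and 11.93 in N154S cells. The exception in the list was Ifi27, a small mitochondrial membrane protein, at 7.91 in R284S and 6.09 in N154S cells, 3.53-fold higher. Its highest value with dsDNA, 8.06, was in vector cells, although the median of this list with dsDNA, 5.53, was lowest there.

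Some of the strongest antiviral genes differed by less than 2-fold. Ifit1, which binds viral RNA lacking a methylated cap, read 11.52 in R284S and 11.91 in N154S cells with dsDNA, with 12.00 in hSTING and 7.35 in vector cells. Isg15, the ubiquitin-like modifier, read 10.92 in R284S and 11.27 in N154S, with 11.46 in hSTING and 8.34 in vector cells. Rsad2, the antiviral enzyme viperin, read 10.42 in R284S and 11.24 in N154S, a difference of -0.82. All 3 were thus high in both variants, and none of the differences, the largest being that of Rsad2, reached 2-fold. The brightest probe set had 13.16 in R284S cells and 13.15 in N154S cells, and array signals can flatten toward that end of the scale. Whether this affected these 3 genes was not tested.

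The interferon-induced GTPases, which attack vacuoles that shelter microbes, showed the next shift. Of 14 measured, 9 passed the 2-fold threshold downward in R284S cells and 0 upward, and the median difference was -1.65 with dsDNA and -0.80 in control cultures. Gm12250, an immunity-related GTPase gene that no list held, had 4.07 in R284S and 7.97 in N154S cells with dsDNA, and was at least 11.4-fold lower. Its signal was 8.84 in hSTING and 3.46 in vector cells. Iigp1 had 7.83 in R284S and 10.40 in N154S and was 5.94-fold lower, and the related Igtp was 4.69-fold and Irgm2 3.81-fold lower. The guanylate-binding protein Gbp5 had 4.42 in R284S and 7.15 in N154S and was at least 6.45-fold lower, although its control signals, 4.35 in R284S and 4.54 in N154S, were close together. Irgm1, at 8.04 in R284S and 8.56 in N154S, differed by -0.52, and Gbp4, Gbp6, Gbp2b and Gbp8 were below the array median in both lines.

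The Ifi200 family, DNA-binding proteins that include the cytosolic inflammasome sensor Aim2, had the lowest median of the 29 lists, -1.84 with dsDNA, beside -1.23 in control cultures. Of 10 measured members, 6 passed the threshold downward and 0 upward. Ifi209 had 4.94 in R284S and 8.85 in N154S cells with dsDNA, with 9.20 in hSTING and 3.0 in vector cells, and was 15.03-fold lower. Its control signals were 4.19 in R284S and 8.14 in N154S cells, so the 2 lines were as far apart there, at -3.95, as with dsDNA, at -3.91. Ifi205 had 7.88 in R284S and 10.94 in N154S and was 8.34-fold lower, Mndal was 3.97-fold and Ifi204 3.71-fold lower. Several of these genes are close copies of each other, as are Ifit3 and Ifit3b and several Gbp and H2-Q genes, so that a probe set may read more than its own gene.

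**Figure D2:**
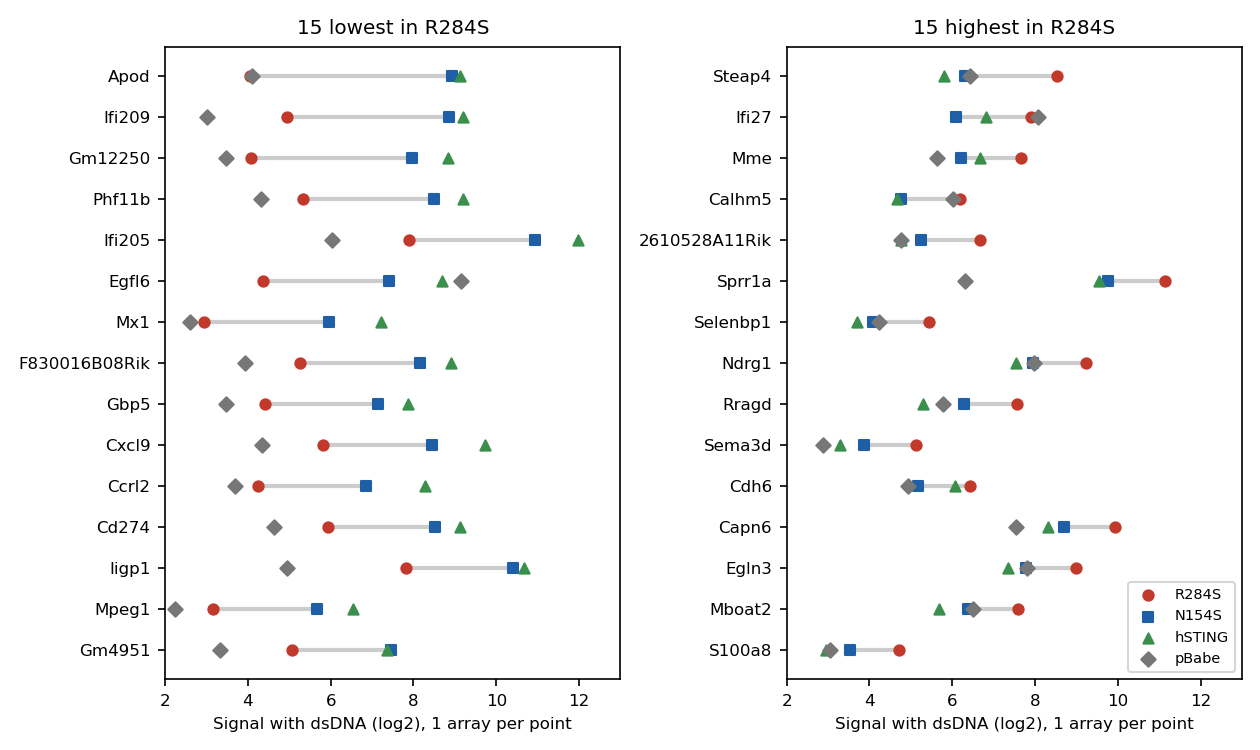
Signals with dsDNA (x axis, log2, 1 array per point) of the 15 genes furthest lower (left) and the 15 furthest higher (right) in R284S than in N154S cells, with hSTING and vector (pBabe) cells for orientation. On the left N154S lies near hSTING for all but Ifi205, Egfl6, Mx1, Cxcl9 and Ccrl2, which differ from it by more than 1. On the right R284S often stands beyond the other 3 lines, as for Steap4 at 8.54.

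Promoters of the lower genes were inspected for 3 short motifs on both strands, in the stretch from 250 bases before to 50 after the annotated start, taken from RefSeq (GRCm38.p6). The core of the interferon-stimulated response element, spelled GAAA, 2 further bases and GAAA, was in 25 of the 94 lower genes with a promoter in that table (26.6%). It was in 3 of 24 higher genes (12.5%) and in 657 of 16990 named genes (3.9%). One form of an NF-kB site, GGG, 2 further bases and TTTCC, was in 6 of the 94 (6.4%), 1 of the 24 (4.2%) and 1.9% of all named genes. TGANTCA, an AP-1 site, was in 17 of the 94 (18.1%), 4 of the 24 (16.7%) and 8.4%. Of all 32851 promoters in the table, some genes having several, 3.4%, 1.6% and 7.8% held the 3 motifs, and a stretch of bases could count for more than one motif. The windows below are shown because they carry the response element core, in capitals as read on either strand, in 4 of the 15 genes furthest lower in R284S cells and in Ifit1, which differed little. All are on the gene's strand, upstream of the start. They lie at chr11:58183722-58183836 (+) for Gm12250, chr14:59341341-59341410 (-) for Phf11b, chr1:174031850-174031919 (-) for Ifi205, chr3:142496739-142496808 (+) for Gbp5 and chr19:34640755-34640843 (+) for Ifit1.
Gm12250: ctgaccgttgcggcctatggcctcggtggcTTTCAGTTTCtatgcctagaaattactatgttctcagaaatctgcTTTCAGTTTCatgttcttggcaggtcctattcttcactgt
Phf11b: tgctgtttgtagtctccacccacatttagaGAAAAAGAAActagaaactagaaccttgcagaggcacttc
Ifi205: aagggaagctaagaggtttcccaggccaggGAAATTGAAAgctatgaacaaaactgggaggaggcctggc
Gbp5: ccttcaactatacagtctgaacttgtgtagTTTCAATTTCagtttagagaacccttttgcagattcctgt
Ifit1: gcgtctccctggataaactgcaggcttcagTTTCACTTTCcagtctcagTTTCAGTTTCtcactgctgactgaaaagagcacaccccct
Gm12250 and Ifit1 each held 2 cores and the other 3 genes 1. The element was therefore present in genes with a wide gap and in one with a narrow gap, and a match of letters is not a measured binding site.

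Interferon beta itself was low in both variants. Ifnb1 had 3.04 in R284S and 4.95 in N154S cells with dsDNA, against 8.80 in hSTING and 3.18 in vector cells. In control cultures it had 4.06 in R284S and 2.82 in N154S cells, so its difference was -1.91 with dsDNA and 1.24 in control cultures. All but one of these 4 variant signals lie below the array median, which leaves a bound of at least 1.40-fold lower with dsDNA. Among 16 measured interferon ligands, receptors and JAK-STAT genes, Ifnb1 was the 1 that differed 2-fold, and the median was -0.16. Ifna4, an interferon alpha, stood at 5.24 in R284S, 5.37 in N154S and 9.03 in hSTING cells, though interferon alpha probe sets can cross-read. The receptor chain Ifnar1 read 8.84 in R284S and 8.73 in N154S, and the signal transducer Stat2 9.20 in R284S and 9.93 in N154S.

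Genes of nucleic acid sensing and signalling had a smaller median difference than the antiviral list, though single members differed widely. Of 19 sensing and signalling genes, 3 were 2-fold or more lower in R284S cells, with a median of -0.61. Tlr3, the endosomal receptor for double-stranded RNA, had 7.23 in R284S and 9.50 in N154S cells with dsDNA, with 10.31 in hSTING and 6.11 in vector cells, and was 4.82-fold lower. Samhd1, which depletes nucleotides, was 2.46-fold lower, and Irf7, the interferon-inducible amplifier of interferon alpha, 2.31-fold lower at 9.81 in R284S and 11.02 in N154S. The enzyme Cgas had 4.91 in R284S and 5.63 in N154S, the kinase Tbk1 8.02 in R284S and 8.19 in N154S, and Irf3 5.71 in R284S and 5.53 in N154S. The components that act directly on either side of STING therefore differed by less than 1.

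Genes of class I antigen presentation, which shows peptides of the cell's own proteins to T cells, included many of the lower genes. Of 17 measured, 8 were counted as lower and 0 as higher, and the median was -0.88 with dsDNA and -0.58 in control cultures. The peptide transporter Tap1 had 7.50 in R284S and 9.10 in N154S cells with dsDNA and was 3.03-fold lower. The heavy chain H2-K1 had 9.58 in R284S and 10.95 in N154S, and the immunoproteasome subunits Psmb9, Psmb8 and Psmb10 were 2.59-fold, 2.25-fold and 2.13-fold lower. None of the 7 class II genes was counted, the brightest of them being H2-Ab1 at 7.62 in R284S and 6.66 in N154S. Among 13 surface ligands, Cd274, which encodes the checkpoint ligand PD-L1, had 5.94 in R284S and 8.52 in N154S cells, with 9.12 in hSTING and 4.62 in vector cells, and was 5.98-fold lower. Among 21 cell death genes the necroptosis effector Mlkl, 2.51-fold lower, was the 1 counted.

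Chemokines differed from member to member. Cxcl9, a CXCR3 ligand that attracts T cells, had 5.81 in R284S and 8.45 in N154S cells with dsDNA, with 9.72 in hSTING and 4.33 in vector cells, and was 6.23-fold lower. Cxcl10, which binds the same receptor, had 12.26 in R284S and 12.59 in N154S, and the third ligand, Cxcl11, had 8.97 in R284S and 9.86 in N154S. Cxcl11 is a transcribed pseudogene in the RefSeq table. In control cultures Cxcl10 and Cxcl11 had been higher in R284S cells, Cxcl10 by 0.88 and Cxcl11 by 1.71, whereas Cxcl9 had a difference of -1.99. Of 13 CC and other monocyte chemokine genes 4 were 2-fold or more lower with dsDNA. They were the decoy-like receptor Ccrl2 at 4.24 in R284S and 6.86 in N154S, Cx3cl1 at 6.22 in R284S and 7.54 in N154S, the eosinophil attractant Ccl11 at 6.83 in R284S and 7.93 in N154S, and Ccl8 at 6.90 in R284S and 7.90 in N154S. Ccl5 had 13.09 in R284S and 12.79 in N154S, close to the array maximum, against 4.89 in vector cells. None of the 5 neutrophil chemokines was counted, with a median of -0.13 beside 0.62 in control cultures.

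Members of the NF-kB list stood close together. Il6, in another list and with the NF-kB form in its promoter, was counted as lower. Of 22 subunits, inhibitors and targets, 0 were 2-fold different, and the differences ran from -0.76 for the adhesion molecule Vcam1 to 0.52 for Bcl3, with a median of -0.24. In control cultures the median was 0.21. Tnfaip3, the A20 enzyme that limits NF-kB, read 8.23 in R284S and 8.43 in N154S cells with dsDNA, against 8.24 in R284S and 6.99 in N154S control cultures. The R284S signal was the same in both states and the N154S signal with dsDNA had reached it. Nfkbia, the inhibitor IkB-alpha, read 9.78 in R284S and 9.90 in N154S with dsDNA and 9.77 in R284S and 9.19 in N154S control cultures.

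Among 27 inflammatory cytokines, growth factors and associated genes, 5 were counted as lower and 1 as higher. The epithelial-type cytokine Tslp had 6.24 in R284S and 8.58 in N154S cells with dsDNA, with 9.67 in hSTING and 5.87 in vector cells, and was 5.06-fold lower. The alarmin Il33 had 6.57 in R284S and 8.72 in N154S, with 9.64 in hSTING and 4.36 in vector cells, and was 4.44-fold lower. Il6 was 2.59-fold lower, Tnf at least 1.54-fold and Il15 at least 1.05-fold. Tslp, Il33, Il6 and Tnf differed by 0.19 or less between the control cultures, where both Tnf signals lay below the array median. The higher member, Steap4, is an iron and copper reductase and no cytokine. Acod1, which makes itaconate and is strongly induced by inflammatory signals in macrophages, had 9.90 in R284S and 10.42 in N154S.

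**Figure D3:**
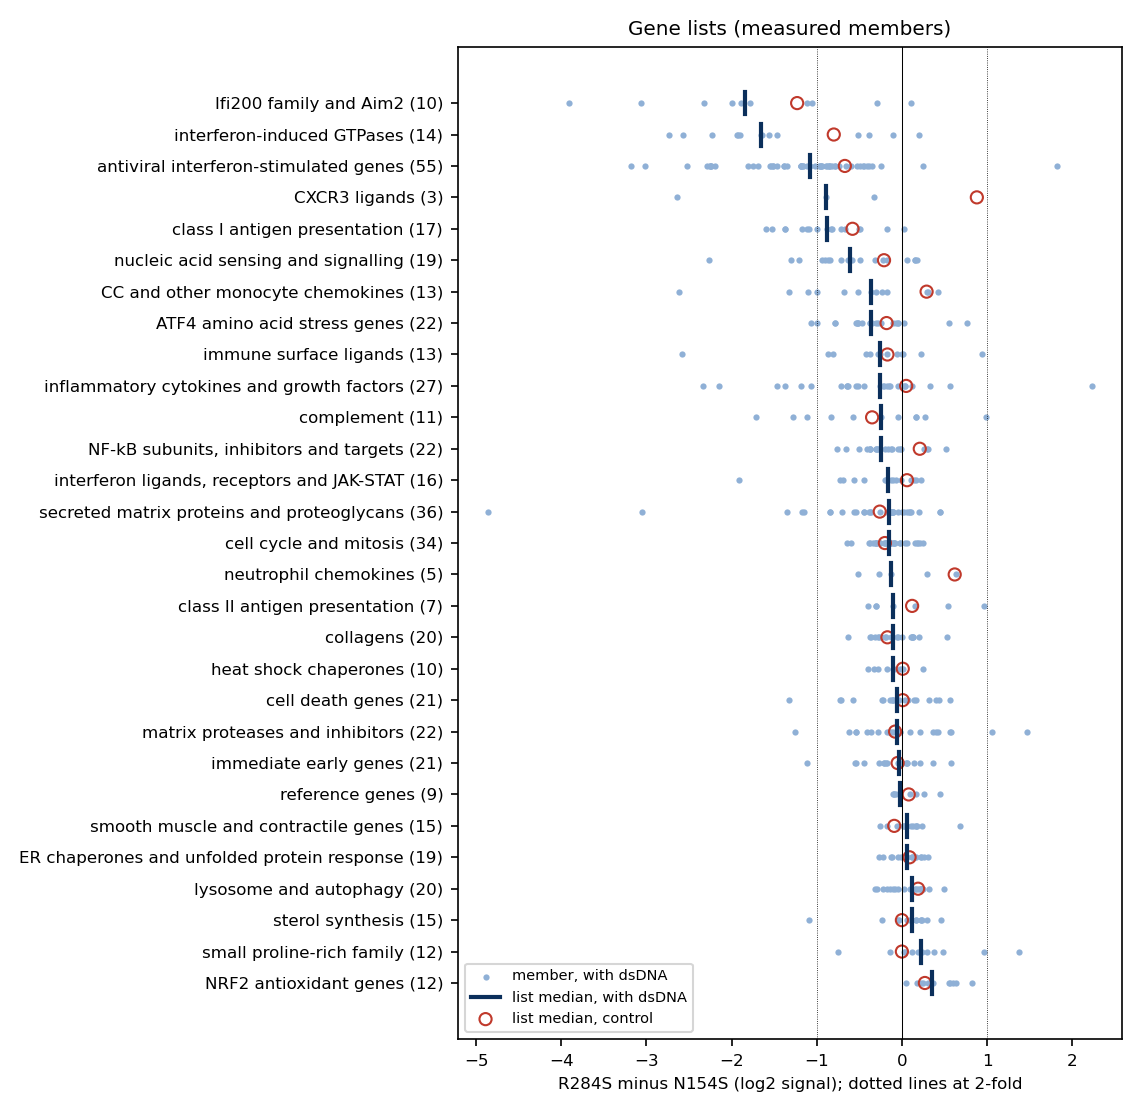
R284S minus N154S (x axis, log2 signal) for each of 29 gene lists, with the number of measured members in brackets. Points are members with dsDNA, dark bars the list medians with dsDNA and open circles the list medians in control cultures. The Ifi200, GTPase and antiviral lists have medians beyond -1 with dsDNA, and the CXCR3 ligand, CC chemokine, neutrophil chemokine and NF-kB medians are negative with dsDNA and positive in control cultures.

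Whether each gap was already there without DNA was read from the control arrays, which the dsDNA comparison does not use. Of the 133 lower genes, 49 had a control difference of -1 or less, 39 had a control difference under 0.5 in size, 42 fell in between and 3 were 0.5 or more the other way. The genes with the gap in both states include Apod, Egfl6, Ifi209, Phf11b, Oas2 and Tap1. Those near 0 in control cultures include Gbp5, Ccrl2, Tslp, Il33, Ifit2, Il6 and Tnf. Both control signals lay below the array median for Tnf (4.18 in R284S, 4.16 in N154S) and Ccrl2 (4.45 in R284S, 4.01 in N154S). A control gap is hard to read at such signals. Of the 30 higher genes, 7 were also 2-fold apart in control cultures, 14 were near 0 there and 9 in between. Among the 14, Selenbp1, S100a8, Slc40a1 and Ednrb had both control signals below the array median. Over all genes the difference with dsDNA correlated with that in control cultures at Pearson's r = 0.273 and Spearman's rho = 0.179, a description across genes of 4 arrays that share their lines.

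The gap itself moved 2-fold or more downward with dsDNA in 97 genes (0.437%) and upward in 37 (0.167%). The 5 largest downward movements were those of Ifnb1 (-3.15), Ccrl2 (-3.06), Acod1 (-2.99), Cxcl11 (-2.60) and Gbp5 (-2.54). For Acod1 the control cultures had 9.65 in R284S and 7.18 in N154S cells, a difference of 2.47 that was the largest positive one of all genes in that state, and with dsDNA the difference was -0.52. Ccrl2 and Gbp5 were thus 2-fold or more apart with dsDNA, and Acod1 and Cxcl11 were not. For Ifnb1, Ccrl2 and Gbp5 the R284S signals in both states lay below the array median, as did the N154S control signals of Ifnb1 and Ccrl2, so the size and order of their movements are uncertain. Among upward movements the largest counted were those of the microRNA gene Mir300 (1.99), the selenium-binding protein Selenbp1 (1.71), Setbp1 (1.49), the channel protein Calhm5 (1.48) and Fbxo16 (1.38). Mir300 read 3.79 in R284S and 2.99 in N154S with dsDNA, below the median, and was counted through its control signal of 4.48 in N154S cells. Selenbp1 read 5.44 in R284S and 4.08 in N154S with dsDNA and 4.05 in R284S and 4.40 in N154S control cultures.

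**Figure D4:**
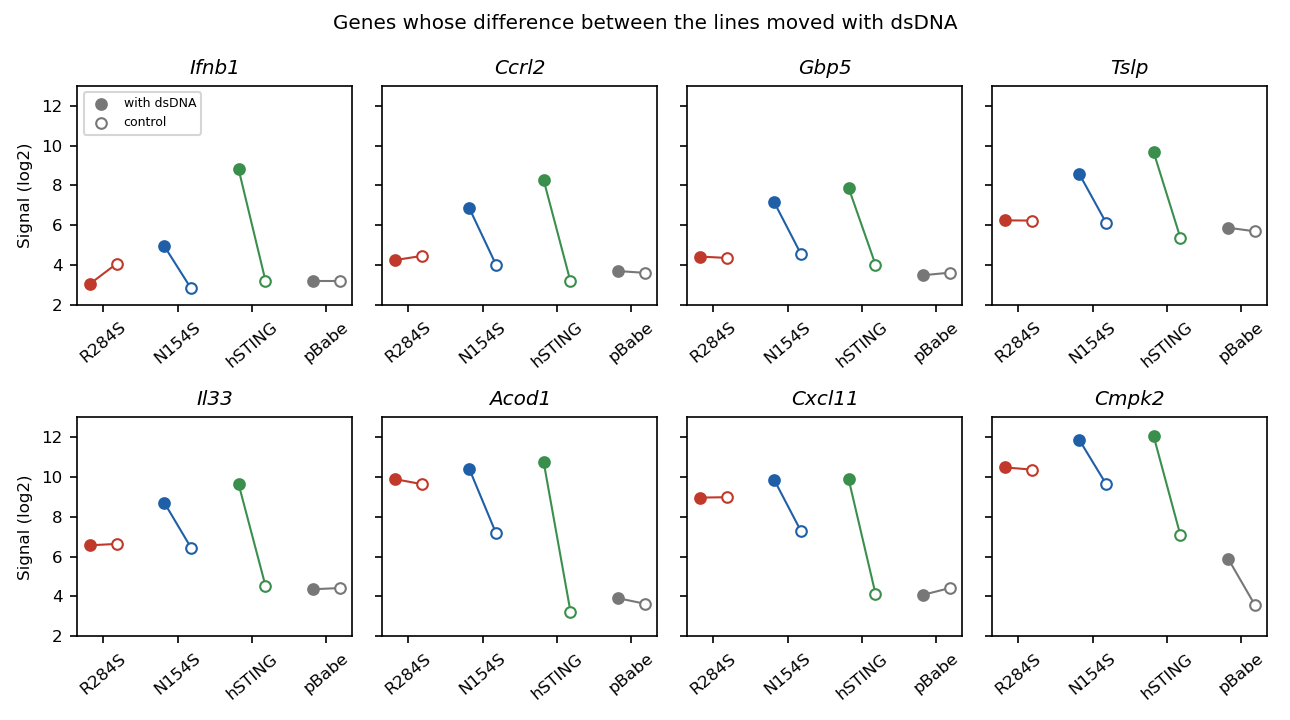
Signals (y axis, log2) of 8 genes whose R284S minus N154S difference moved downward with dsDNA, in each line with dsDNA (filled) and in control culture (open), 1 array per point. In R284S cells the 2 points are within 0.25 of each other except for Ifnb1, whereas in N154S and hSTING cells the filled point is higher for all 8 genes.

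Measured within each line, 6 genes were 2-fold or more higher with dsDNA than in control culture in R284S cells (0.0271%) and 9 were lower (0.0406%). In N154S cells 84 genes were higher (0.379%) and 24 lower (0.108%), in hSTING cells 445 (2.01%) and 111 (0.5%), and in vector cells 33 (0.149%) and 8 (0.0361%). Of the 133 lower genes, 36 were 2-fold or more higher with dsDNA than in control culture in N154S cells and 0 in R284S cells. Their median dsDNA minus control difference was 0.03 in R284S cells and 0.62 in N154S cells. These genes were picked for a low R284S and a high N154S signal with dsDNA, so the values describe them and test nothing. The lists too were chosen with earlier results of these data known, so theirs are likewise descriptions. The antiviral list had medians of 0.06 in R284S and 0.52 in N154S cells, and the GTPase list 0.10 in R284S and 0.94 in N154S. Of the 6 in R284S cells the furthest above its control was Slc7a11, the cystine importer of glutathione synthesis, with 7.39 with dsDNA and 4.99 in control culture. It was chosen after its values were seen, and it was also higher with dsDNA in the other 3 lines, for example at 6.84 with dsDNA and 4.57 in control culture in N154S cells. All 4 lines thus differed from their control culture in this gene.

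**Figure D5:**
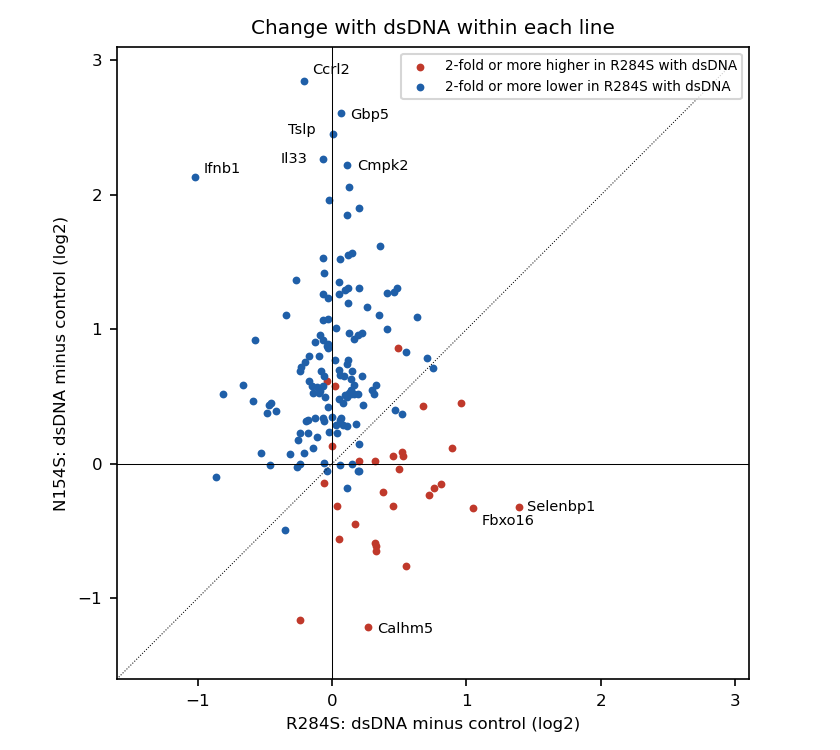
dsDNA minus control in R284S cells (x axis) and in N154S cells (y axis), log2 signal, for the 30 genes higher (red) and the 133 lower (blue) in R284S cells with dsDNA. Most blue points stand above 0 on the y axis, 122 of 133, and around 0 on the x axis, 69 of 133 above it, and the dotted line marks equal change.

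Against the other lines with dsDNA, N154S cells were nearer to hSTING than R284S cells were for 130 of the 133 lower genes. The median of N154S minus hSTING over them was -0.44 and that of R284S minus hSTING -1.82. R284S cells were nearer to vector cells for 115 of the 133, with a median of 0.91 for R284S minus vector and 2.41 for N154S minus vector. For 110 of the 133 both lines lay within 0.5 of the range spanned by hSTING and vector cells. Egfl6, a secreted matrix-binding protein, was one that did not follow this order, with 4.36 in R284S and 7.41 in N154S cells against 8.68 in hSTING and 9.16 in vector cells. For 17 of the 30 higher genes R284S lay above that range and N154S within it. N154S cells were nearer to hSTING than R284S cells were for 27 of the 30 too, and R284S cells nearer to vector cells for 8. Both groups of genes were picked by their R284S and N154S signals with dsDNA, so these positions describe them and test nothing. The same shares over all genes were not counted.

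Apod and several matrix genes were lower in R284S cells irrespective of dsDNA. Apod had 4.06 in R284S and 8.92 in N154S cells with dsDNA and 3.87 in R284S and 8.97 in N154S control cultures, with 9.12 in hSTING and 4.11 in vector cells with dsDNA. Of 36 secreted matrix proteins and proteoglycans 5 were 2-fold or more lower, and the median was -0.15. Besides Apod and Egfl6 these were dermatopontin (Dpt), Abi3bp and the elastic fibre protein Fbln5, all 3 of which were highest in vector cells among the lines with dsDNA. Of the 11 complement genes, the C1 inhibitor Serping1 was 3.27-fold lower, at 6.91 in R284S and 8.62 in N154S, and C2 at least 1.92-fold lower. None of the 20 collagens was counted, and their median was -0.10. The signals of the matrix list with dsDNA had medians of 7.94 in R284S and 9.00 in N154S cells, with 9.32 in hSTING and 9.12 in vector cells.

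The higher genes held few members of any one list. Steap4 had 8.54 in R284S and 6.31 in N154S cells with dsDNA, with 5.81 in hSTING and 6.42 in vector cells, and 8.34 in R284S and 6.29 in N154S control cultures. The surface peptidase Mme (neprilysin) had 7.67 in R284S and 6.20 in N154S and was 2.77-fold higher, and the macrophage-type metalloelastase Mmp12 was 2.09-fold higher. Sprr1a, a cornified envelope protein also seen in injured neurons, had 11.13 in R284S and 9.76 in N154S, with 9.54 in hSTING and 6.30 in vector cells, and was 2.59-fold higher. It was the 1 counted of 12 small proline-rich genes. The hypoxia-linked genes Ndrg1 and Egln3, the second a prolyl hydroxylase of HIF, were 2.43-fold and 2.31-fold higher, and the amino acid sensor GTPase Rragd 2.43-fold. The second probe set of Ndrg1 differed by 0.22. Selenbp1 was at least 1.96-fold, Sema3d at least 1.58-fold and the calcium-binding alarmin S100a8 at least 1.189-fold higher.

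Other programs had few or no members counted. All 12 antioxidant genes of the NRF2 list were above 0, with a median of 0.35 and a largest difference of 0.82 for Gsta4, and 0 passed 2-fold. The median dsDNA minus control difference of this list was 0.76 in R284S and 0.48 in N154S cells. Its median signal was higher with dsDNA in the other lines too. It was 8.95 with dsDNA and 7.97 in control culture in vector cells, and 8.61 and 8.06 in hSTING cells. None of the 34 cell cycle genes, 15 contractile genes, 19 unfolded protein response genes, 10 heat shock genes or 20 lysosome genes was counted. Their medians were -0.15, 0.06, 0.06, -0.10 and 0.12. Of 22 ATF4 stress genes the amino acid transporter Slc7a5 and the transcription factor Atf3 were 2.10-fold and 2.0-fold lower, and the list median was -0.36. Single members were counted among 21 immediate early genes (Egr1, 2.16-fold lower) and 15 sterol genes (Ch25h, the interferon-induced cholesterol 25-hydroxylase, 2.13-fold lower). Of 9 reference genes 0 were counted, the median was -0.02, and Gapdh read 12.72 in R284S and 12.63 in N154S.

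One fit leaves residual degrees of freedom for these 2 lines. It averages R284S minus N154S over control and dsDNA arrays in limma, with construct and treatment as additive terms over all 8 arrays and 3 residual degrees of freedom. Its error takes in how far the dsDNA effect varied from construct to construct, so genes whose gap moved with dsDNA are disfavoured. With Benjamini-Hochberg adjustment over all genes 2 of 22180 passed 0.05 (0.00902%), and 1568 had an unadjusted p under 0.05. Steap4 was higher by 2.14 (SE 0.13, limma adjusted p = 0.0171) and Egfl6 lower, at -2.75 (SE 0.20, limma adjusted p = 0.0263). Each was higher or lower in both states. Apod, with -4.98 (SE 0.45), had a limma adjusted p of 0.0799. Without the pair of vector arrays 0 genes passed, with a smallest limma adjusted p of 0.0639 and 1458 genes at an unadjusted p under 0.05, and without the pair of hSTING arrays 7 passed.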

How the data were processed

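Gene expression was measured on 1 Affymetrix array for each of 8 cultures of STING-/- MEFs. Per the submitters' processing notes, the authors used Affymetrix Expression Console 1.3.1.187, and the deposited log2 signals were used as they stand. The background correction, the summary method and the array build are not stated there. Once sorted, no 2 arrays differed anywhere by over 0.25. Of 41345 probe sets, 23521 had 1 gene symbol in the platform annotation. A gene was represented by its probe set of highest mean signal, which left 22180 genes. Most genes named in the text are the 15 highest and 15 lowest counted genes, list members, the 5 largest movements of the gap in each direction, genes passing the fit and a small panel. Others were chosen after their values were seen, among them Slc7a11, the flagged genes and the examples of probe sets with several genes. The members and the 29 lists were chosen with earlier results of these data known. Of 580 list entries 519 were measured. The fit used limma 3.58.1 in R 4.3.3. The counting and the fit were run on simulated data with planted differences. That checks the code and not how well differences are found in these arrays. With 1 array per culture, the number of arrays limits the precision, and the fit's p-values rest on single cultures. Alternatives covered the filter on dim genes, probe set choice, scaling, gene type and the arrays in the fit.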

Additional observations from a re-analysis of the deposited data

Results flagged for a closer look

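In 3 of the genes lower in R284S than in N154S cells with dsDNA, the 2 lines stood the other way round by 0.5 or more in control cultures. Ifnb1 differed by -1.91 with dsDNA and by 1.24 in control cultures, where both signals, 4.06 in R284S and 2.82 in N154S, lay below the array median, so that its control direction is uncertain. Cmpk2, a mitochondrial nucleotide kinase induced by interferon, differed by -1.39 with dsDNA and 0.72 in control cultures, with 10.49 in R284S and 11.88 in N154S cells with dsDNA. Rtl3, a gene derived from a retrotransposon, differed by -1.18 with dsDNA and 0.52 in control cultures, with 5.56 in R284S and 6.74 in N154S with dsDNA. The turn was not tested, since each value is a difference of 2 single arrays.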

How the results depend on the processing

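No paired analysis was possible because the labels give no replicate numbers and each construct and treatment has 1 array. The additive fit matches control and dsDNA arrays by construct alone. The count of genes higher in R284S cells with dsDNA depended most on the filter on dim genes, with 58 without a filter and 12 with the brighter array at the 75th percentile or above, against 30. The genes whose gap moved numbered 354 and 58 under those settings, against 134. The lower genes numbered 167 and 96, against 133, and the higher genes made up 25.8% and 11.1% of those counted, against 18.4%. Quantile normalization, centring, mean over probe sets and protein coding genes alone moved none of these 3 counts by more than 1.5 times. Over bright members alone the list medians were -2.16 for the Ifi200 family, -0.70 for complement and 0.72 for the small proline-rich genes, against -1.84, -0.24 and 0.22. The fit over both treatments called 12 genes with a trend and robust variances, 0 without the vector pair and 7 without the hSTING pair, against 2. Averaging probe sets moved 15 single genes, among them Sp100 to -1.21, Sp110 to -0.96, Ifi35 to -0.82, Ndrg1 to 0.75 and Ch25h to -0.70. Of the 11 counted genes with several probe sets, those of Lpl, Exoc3l4, Trim34a and Sp110 disagreed in direction. No gene counted as different changed sign under these alternatives. Only averaging probe sets could have turned a 2-fold difference, and only in those 11 genes, because centring and quantile normalization move values too little. The median of the reference genes was 0.02 after quantile normalization, against -0.02. The cause of these shifts, apart from the number of genes a filter or fit admits, was not tested. Signals below the array median and those near its maximum limit what fold can be read.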

Other observations

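Probe sets assigned to several genes, left out above, held further interferon-induced families. Of 1814 such probe sets, 21 were 2-fold or more lower in R284S than in N154S cells with dsDNA and 2 were higher. Among the 22180 named genes 133 were lower (0.6%) and 30 higher (0.135%). The examples of lower ones given here were chosen after their values were seen. The class I genes H2-Q6 and H2-Q8 shared a probe set at 6.88 in R284S and 10.09 in N154S cells, with 8.32 in hSTING and 3.71 in vector cells, so that N154S stood above hSTING. The T cell GTPases Tgtp1 and Tgtp2 had 2.82 in R284S and 5.28 in N154S on one probe set and 3.90 in R284S and 5.82 in N154S on another. Gbp2 and Gbp2b had 9.06 in R284S and 10.68 in N154S, with 11.41 in hSTING and 6.45 in vector cells. Oas1a and Oas1g had 6.54 in R284S and 7.97 in N154S, and the antiviral partners Dtx3l and Parp9 7.80 in R284S and 9.05 in N154S. Of the 2 higher ones, the probe set of Lrp2bp and Ankrd37 had 7.01 in R284S and 5.58 in N154S, and that of 4 prolactin-like Prl2c genes 6.08 in R284S and 4.76 in N154S. Among the 16010 probe sets with no entry in the annotation, 133 were higher and 129 lower. These numbers are close to even, unlike the 30 higher and 133 lower named genes, and the probe sets cannot be named here.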
